A study of Homo sapiens with 2 samples.

Results

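The cells described here are MDA-MB-231 cells in a state marked by transcripts of CEMIP and of the serum amyloid A genes SAA1 and SAA2, and they made up 5704 of the 19979 cells analysed. MDA-MB-231 is an established human triple-negative breast cancer line with mesenchymal features, and all cells came from it. D0 was a library of parental cells kept in RPMI medium with 100 µM methionine. D21 was a library of revertant cells kept for 21 days without methionine, with 100 µM L-homocysteine and 1.5 µM cyanocobalamin (vitamin B12) in its place. Both media held 10% dialysed fetal bovine serum. Reversion is the recovery of growth on homocysteine, the precursor of methionine, and the comparison asks what distinguishes cells that had undergone it. A cell was chosen when CEMIP, SAA1 and SAA2 together reached 2 UMIs (unique molecular identifiers, each a counted transcript) per 10,000 of its UMIs, the gate sum. It also had AGR2 and SPANXB1 together below 1 per 10,000, fewer than 2 MMP1 UMIs, and IFIT1, IFIT2, IFIT3 and OASL together below 5 per 10,000. Cells had at least 9009 UMIs (D0) or 5422 UMIs (D21), at least 500 genes and at most 20% mitochondrial UMIs. D0 held 1214 chosen cells of 7492 and D21 held 4490 of 12487. They are called CEMIP/SAA cells below. Each condition is 1 library, so there is no replicate error and no test. Genes are counted by size alone, and the 95% intervals cover counting error only.

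CEMIP binds hyaluronan, the large sugar polymer of the extracellular matrix, and takes part in its breakdown. SAA1 and SAA2 encode acute-phase serum amyloid A proteins, which travel on high-density lipoprotein. The liver makes them in large amounts during inflammation, under interleukin 6, interleukin 1 and the transcription factors NF-kB and STAT3, and epithelial and tumour cells can make them too. AGR2, which the choice kept low, is a disulfide isomerase of the endoplasmic reticulum in secretory epithelium, and SPANXB1 is a cancer-testis gene.

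SAA1 (chromosome 11, chr11:18266174-18269977, plus strand, GRCh38) and SAA2 (chr11:18239223-18248643, minus strand) are near-identical neighbours, and their sequences are shown because reads of 1 gene could be counted for the other. Their coding sequences are 369 bases each and differ at 11 positions (97.0% identical). The 150 bases from coding position 175 to 324 hold 10 of these positions, in capitals.
SAA1: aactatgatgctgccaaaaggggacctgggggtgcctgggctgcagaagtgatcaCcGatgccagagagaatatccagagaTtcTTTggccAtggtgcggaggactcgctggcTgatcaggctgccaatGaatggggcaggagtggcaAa
SAA2: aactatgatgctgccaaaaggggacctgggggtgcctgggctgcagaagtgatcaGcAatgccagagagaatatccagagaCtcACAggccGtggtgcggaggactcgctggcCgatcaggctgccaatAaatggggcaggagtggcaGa
Over their whole reference transcripts (615 and 563 bases) the genes matched at 512 of 558 aligned positions (91.8%), more differences lying outside the coding part. The level of SAA1 set against that of SAA2 is therefore uncertain, whereas their sum is not affected by reads split between them. The sum would be lowered if reads that match both genes were left out, and their treatment is not given.

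Start regions are shown, that of CEMIP, which defines the cells with SAA1 and SAA2, and those of TNFSF10 and IL6, ligands that were at least 2-fold higher in them in both libraries. Each is the 250 bases before the transcription start (RefSeq, GRCh38.p14) on the gene's own strand. Capitals mark matches on either strand to the κB motif, TGANTCA (the AP-1 motif), GAAANNGAA (an interferon-response core) or TATAAA. SAA1 and SAA2 had no entry among the start regions used.
CEMIP, chr15:80779120-80779369, plus strand: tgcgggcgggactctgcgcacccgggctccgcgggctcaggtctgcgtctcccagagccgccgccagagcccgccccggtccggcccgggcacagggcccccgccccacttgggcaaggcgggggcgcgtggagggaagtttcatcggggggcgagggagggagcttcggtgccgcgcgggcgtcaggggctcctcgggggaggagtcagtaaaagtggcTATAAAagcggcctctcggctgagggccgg
TNFSF10, chr3:172523431-172523680, minus strand: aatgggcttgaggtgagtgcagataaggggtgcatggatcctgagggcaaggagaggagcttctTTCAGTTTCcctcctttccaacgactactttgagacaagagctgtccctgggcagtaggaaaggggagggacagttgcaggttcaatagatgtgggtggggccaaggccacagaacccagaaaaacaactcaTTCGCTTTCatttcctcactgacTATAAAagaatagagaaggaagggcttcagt
IL6, chr7:22726950-22727199, plus strand: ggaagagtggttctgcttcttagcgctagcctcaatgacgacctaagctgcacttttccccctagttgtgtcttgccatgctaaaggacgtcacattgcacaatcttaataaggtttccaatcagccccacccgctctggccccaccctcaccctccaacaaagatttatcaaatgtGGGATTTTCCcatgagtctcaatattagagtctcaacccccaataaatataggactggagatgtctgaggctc
CEMIP and TNFSF10 held TATAAA, which begins 30 and 31 bases before the start. TNFSF10 also held GAAANNGAA on the opposite strand at 186 to 178 and at 54 to 46 bases before the start, and IL6 held a κB match 73 to 64 bases before it. Of 35116 start regions, 5.21% held a κB match, 6.57% TGANTCA, 6.88% GAAANNGAA and 10.7% TATAAA. A gene can have several start regions and is counted below when any of them held the motif. Counted in that way, 6.28% of 27305 genes held κB, 8.06% TGANTCA, 8.41% GAAANNGAA and 13.05% TATAAA. These shares of genes are the ones to set beside the counts that follow. Of the 15 genes named below as higher in both libraries, 13 had a start region, of which 2 held κB (SLC1A3 and IL6), 3 TGANTCA (FLG, SLC1A3 and DENND2A), 3 GAAANNGAA (TNFSF10, NEDD9 and HLA-F) and 3 TATAAA (FLG, TNFSF10 and ABCA1). Of the 10 genes named below as lower, 4 had a start region, of which 1 held κB (AFF3), 1 TGANTCA (PRSS3) and none the other motifs. A match is a run of letters and shows no binding.

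CEMIP/SAA cells were 16.2% of D0 cells (95% interval 15.4 to 17.1%) and 36.0% of D21 cells (35.1 to 36.8%), a difference of 19.8 percentage points (18.6 to 20.9). The share was higher in D21 in all 4 matched windows of depth. Among cells with 10000 to 15000 UMIs it was 8.88% in D0 and 40.7% in D21, with 15000 to 20000 UMIs 15.8% and 41.1%, with 20000 to 30000 UMIs 19.7% and 37.2%, and with 30000 to 60000 UMIs 24.3% and 38.7%. Over all D21 cells, ordered by UMIs and cut into 4 groups of near-equal size, it was 27.0, 36.0, 42.4 and 38.5% from the shallowest to the deepest. The share was thus lowest in the shallowest cells of both libraries. With every cell thinned to 5422 UMIs before the choice, the shares were 13.5% and 32.2%. The share was also taken on parts of the gate sum, which describes the choice and is not a result about these genes. With CEMIP alone at 2 per 10,000 the shares were 7.65% and 11.6%, a difference of 3.94 points, whereas with SAA1 and SAA2 alone they were 11.7% and 31.9%, a difference of 20.2 points.

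**Figure D1:**
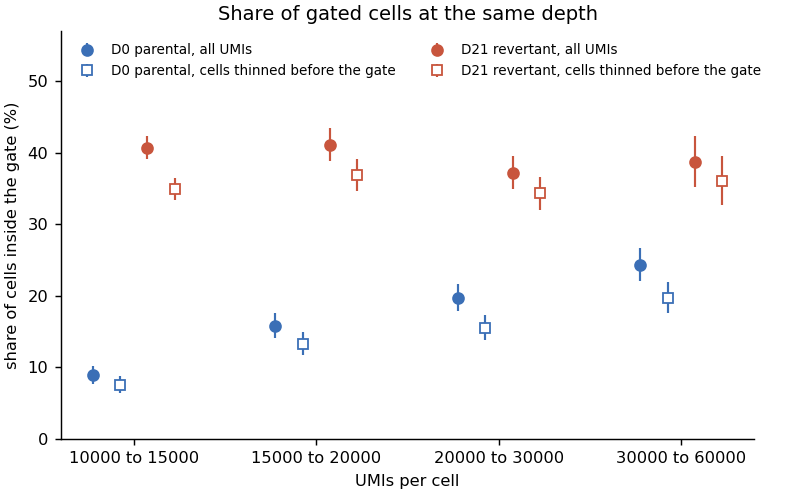
The share of CEMIP/SAA cells (percent, with exact 95% binomial intervals) is plotted in 4 windows of UMIs per cell for D0 (blue) and D21 (red), from all UMIs (filled) and after thinning (open). In every window D21 lies above D0, 8.88% against 40.7% in the lowest window and 24.3% against 38.7% in the highest.

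Barcodes with 10 to 100 UMIs, which hold RNA free in the suspension, carried SAA1 at 146 counts per 1000000 UMIs (CPM) in D0 and 559 CPM in D21, SAA2 at 32.0 and 131 CPM, and CEMIP at 25.7 and 29.9 CPM. The free RNA of D21 thus held more serum amyloid transcript, and its part in the D21 share was not tested. Cells rich in AGR2 and SPANXB1 (at least 10 per 10,000) give a level for cells of the opposite state. In those that met the MMP1 and interferon limits the gate sum reached 2 in 29 of 1197 D0 cells (2.42%, 1.63 to 3.46%) and 66 of 660 D21 cells (10.0%, 7.82 to 12.5%), at a median of 15550 and 9151.5 UMIs. Among cells with AGR2 and SPANXB1 below 1 per 10,000 that met the same limits it did so in 35.2% of D0 and 63.2% of D21 cells, at a median of 19902 and 12252 UMIs. For CEMIP alone the shares in AGR2-rich cells were 0.668% and 0.606%, against 16.6% and 20.4%. For SAA1 and SAA2 alone they were 1.75% and 9.70%, against 25.4% and 56.1%.

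The genes used for the choice are given for each library as a description of the choice, not as results. The median gate sum was 6.75 per 10,000 in D0 (highest 218) and 8.51 in D21 (highest 330.0). Just inside the limit, from 2 to 3, lay 179 D0 and 478 D21 cells, with medians of 2.47 and 2.49. Just outside it, from 1 to 2, lay 285 D0 and 736 D21 cells with medians of 1.46 in both, which met the other limits. In D0, 875 CEMIP/SAA cells had UMIs of both CEMIP and a serum amyloid gene, 244 of serum amyloid without CEMIP and 95 of CEMIP without serum amyloid. In D21 these were 2679, 1689 and 122 cells. After thinning to equal depth, CEMIP was seen in 56.0% of D0 and 44.8% of D21 CEMIP/SAA cells, SAA1 in 73.5% and 87.9%, and SAA2 in 35.7% and 47.9%.

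The libraries held 199799447 UMIs (D0) and 199817213 UMIs (D21). CEMIP/SAA cells had a median of 22752 UMIs in D0 and 12914 in D21, against 18186.5 and 11442 in other cells. Their median mitochondrial share was 6.45% and 6.96%, against 5.62% and 6.42%. At equal depth they held a median of 2425.5 and 2359 genes, against 2338 and 2301. The markers of the line (VIM, CD44, AXL, KRT8, KRT18 and MKI67) were all present at 20 CPM or more. Of 16 markers of leukocytes, endothelium, fibroblasts, other epithelium and red cells, 4 were at 0 in D0 CEMIP/SAA cells and 2 in D21, and their summed level was 21.1 and 17.9 CPM, against 25.8 and 21.7 CPM in other cells. The libraries shared 21 cell barcodes (0.280% of D0 and 0.168% of D21 cells).

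Set against all other cells of their library, CEMIP/SAA cells were higher in cell-surface and secreted immune genes, matrix genes and antigen presentation, and lower in cystatins and genes of the AGR2 state. Because the cells were chosen on their transcripts, these values describe the state and are not tests of it. Of 7071 genes with at least 20 CPM in 1 of the groups in D0, 122 (1.73%) were at least 2-fold higher and 91 (1.29%) at least 2-fold lower. In D21 these were 41 (0.602%) and 85 (1.25%) of 6810 genes. In both libraries 36 genes were at least 2-fold higher and 60 at least 2-fold lower, of 6655. The median log2 ratio of all genes was 0.08 in D0 and 0.05 in D21, and 63.0% and 60.7% of them lay above a ratio of 1, which are the shares to set beside the list counts that follow.

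TNFSF10, which encodes the death ligand TRAIL, was at 426 CPM in CEMIP/SAA cells and 82.1 CPM in other cells of D0, 5.19-fold (5.07 to 5.32) higher. In D21 it was at 362 and 125 CPM, 2.89-fold (2.83 to 2.95) higher. IL6, the cytokine that drives the hepatic acute phase, was at 24.7 against 7.02 CPM in D0 and 28.6 against 11.3 CPM in D21, 3.52-fold (3.21 to 3.86) and 2.52-fold (2.35 to 2.71) higher. IL32, a proinflammatory cytokine, was 3.24-fold (3.07 to 3.42) higher in D0 and 2.19-fold (2.11 to 2.27) higher in D21. The neutrophil chemokine CXCL8 was 1.80-fold and 1.65-fold higher, short of 2-fold. Of the cytokine and chemokine list, 7 of 22 genes were measured in each library, of which 6 lay above a ratio of 1 in D0 (3 at least 2-fold) and 5 in D21 (3 at least 2-fold), with median log2 ratios of 0.85 and 0.73. CSF2, a myeloid growth factor, differed in direction between the libraries, with log2 ratios of 0.48 and -0.53, and in D21 it was at 0.12 when cells were chosen on CEMIP alone.

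Other acute-phase genes were sparse. Only PTX3, a soluble pattern-recognition protein, and SERPINA1, the antitrypsin gene, reached 20 CPM of the 20 genes listed, SERPINA1 only in D0. PTX3 was at 97.5 against 52.0 CPM in D0 and 80.7 against 47.1 CPM in D21, 1.88-fold and 1.71-fold higher. SERPINA1 was lower, at 27.1 against 34.2 CPM in D0 and 11.2 against 17.5 CPM in D21, although its D0 log2 ratio of -0.34 was 0.08 when cells were chosen on CEMIP alone. SAA4, the constitutive serum amyloid gene beside SAA2 on chromosome 11, was low throughout but followed the state, with 128 UMIs (3.75 CPM) in CEMIP/SAA cells and 86 (0.577 CPM) in other cells of D0, and 536 (7.77 CPM) and 236 (2.07 CPM) in D21. Reads of SAA4 and SAA2 lie next to each other on the same strand, and a split between them was not tested. SERPINA3, an acute-phase protease inhibitor, was at 7.20 against 2.04 CPM and 5.38 against 1.81 CPM. Of 18 genes that NF-kB induces or is restrained by, all 11 measured in D0 and 10 of 12 in D21 lay above a ratio of 1, with median log2 ratios of 0.28 and 0.31. CFLAR, the inhibitor of caspase 8 at death receptors, was the 1 at least 2-fold higher, at 127 against 47.4 CPM in D0 and 122 against 60.0 CPM in D21.

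The group that presents antigen on MHC class I lay higher in these cells. All 16 measured in D0 lay above a ratio of 1 (4 at least 2-fold, median log2 0.73), and 14 of 16 did in D21 (1 at least 2-fold, median 0.50). HLA-B, a classical heavy chain, was at 1371 against 552 CPM in D0 and 1302 against 675 CPM in D21, 2.48-fold (2.45 to 2.51) and 1.93-fold (1.91 to 1.95) higher. The non-classical HLA-F was 3.97-fold and 2.56-fold higher. The light chain B2M was 1.19-fold and 1.11-fold higher. HLA genes are close relatives, and reads could be split between them. MHC class II genes were present at lower levels and lay above a ratio of 1 for all 5 genes measured in D0 and all 4 in D21, led in level by CD74, the invariant chain (181 against 104 CPM in D0, 101 against 68.8 CPM in D21). Interferon-induced genes outside the choice did not move as 1 group. In D0 10 of 14 lay above a ratio of 1 and in D21 8 of 13, with medians of 0.39 and 0.07, and the limit on IFIT1, IFIT2, IFIT3 and OASL itself removed cells high in such genes. ISG15, an interferon-induced ubiquitin-like protein, had log2 ratios of -0.62 and -0.59, but 0.07 and 0.06 without that limit, and 0.02 in D0 against AGR2 and SPANXB1 state cells.

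Matrix genes were the list with most genes at least 2-fold higher in each library. Of 26 genes for fibronectin, thrombospondin, collagens and their modifying enzymes, 16 were measured, of which 15 lay above a ratio of 1 in D0 (8 at least 2-fold, median log2 1.09) and 14 in D21 (4 at least 2-fold, median 0.75). FN1, fibronectin, was at 471 against 134 CPM in D0 and 255 against 118 CPM in D21, 3.51-fold (3.43 to 3.58) and 2.16-fold (2.11 to 2.20) higher. THBS1, thrombospondin 1, was 3.68-fold (3.57 to 3.79) and 2.30-fold (2.24 to 2.36) higher. COL6A3, a collagen VI chain, was at 36.3 against 10.5 CPM and 24.0 against 7.93 CPM. The group did not extend to all matrix-related genes. Laminins and integrins lay mostly below a ratio of 1 (9 of 14 in D0, 9 of 12 in D21). The hyaluronan receptor CD44 was 1.98-fold higher in D0 and 1.47-fold in D21, and the receptor LAYN 1.79-fold and 1.76-fold, while the other genes of hyaluronan metabolism that reached 20 CPM had log2 ratios between -0.17 and 0.14.

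The other genes that led in both libraries had varied roles. FLG encodes filaggrin, the barrier protein of the outer skin, and was at 61.7 against 11.99 CPM in D0 and 64.1 against 20.4 CPM in D21, 5.15-fold (4.83 to 5.49) and 3.14-fold (2.99 to 3.30) higher. Of the barrier list, DSP, a desmosome protein, was 2.70-fold and 1.90-fold higher and the transglutaminase TGM2 2.06-fold and 1.80-fold, while KRT10, a keratin, was at 255 against 298 CPM and 284 against 335 CPM. NNMT, which uses the methyl group of S-adenosylmethionine on nicotinamide, was at 164 against 40.6 CPM in D0 and 227 against 81.1 CPM in D21, 4.03-fold (3.89 to 4.18) and 2.80-fold (2.73 to 2.88) higher. ABCA1, the exporter of cellular cholesterol to apolipoprotein, was 4.08-fold (3.88 to 4.28) and 2.66-fold (2.56 to 2.77) higher. The glutamate transporter SLC1A3, the adhesion scaffold NEDD9, the sorting receptor SORCS2, the glutamate receptor subunit GRIK4, DENND2A and the noncoding RNAs SGO1-AS1, SNHG18 and LINC01505 made up the rest, with log2 ratios from 1.58 to 2.10 in D0 and from 1.33 to 1.57 in D21. SGO1-AS1 is antisense to SGO1, and no source used here says whether counting used the strand. CYP1B1, a target of the aryl hydrocarbon receptor, was 4.72-fold (4.53 to 4.92) higher in D0 and 2.31-fold (2.22 to 2.40) in D21, and F3, tissue factor, 2.35-fold and 1.79-fold.

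Among lower genes, the secreted cystatins stood at the head. CST1, an inhibitor of cysteine proteases, was at 56.1 CPM in CEMIP/SAA cells against 491 CPM in D0, a ratio of 0.114 (0.109 to 0.120), and at 69.7 against 589 CPM in D21, a ratio of 0.118 (0.115 to 0.122). CST4 was at 26.1 against 269 CPM and 21.0 against 170.1 CPM, and CST2 at 10.6 against 82.4 and 7.82 against 68.1 CPM. These cystatins are paralogs that could share reads. The hair keratin KRT81 was at 43.9 against 251 CPM in D0 and 79.9 against 459 CPM in D21, and the transcription factor SOX4 at 22.9 against 129 and 11.6 against 74.4 CPM. SPDEF, AFF3, TNS4, FAM155A and PRSS3 had log2 ratios between -3.04 and -2.55 in D0 and between -3.12 and -2.62 in D21. Of the list of genes that go with AGR2, which was drawn up with earlier results of these data known, 7 of 9 in D0 and 6 of 8 in D21 were at least 2-fold lower. The choice kept AGR2 and SPANXB1 low and the other cells included those rich in them, so this count follows in part from the choice. In cells with neither programme, described below, KRT81 was at 130 CPM in D0 and 304 CPM in D21. SOX4 was at 112 and 55.1 CPM in them. Feedback genes of the RAS-MAPK pathway were lower as a group, 14 of 16 in D0 and 15 of 16 in D21 below a ratio of 1, with medians of -0.34 and -0.59. ETV1, a transcription factor of that pathway, was at 33.8 against 85.5 CPM in D0 and 29.7 against 78.3 CPM in D21, and SPRY1, an inhibitor of it, at 28.5 against 66.6 and 13.2 against 32.6 CPM. The calcium-binding S100A6, an abundant transcript, had ratios of 0.536 and 0.539.

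Methionine cycle, folate and vitamin B12 genes held none past 2-fold in either library. Their median log2 ratios were 0.26, 0.12 and -0.04 in D0 and 0.07, 0.13 and 0.08 in D21, beside 0.08 and 0.05 for all genes. MTR, methionine synthase, was at 41.3 against 32.8 CPM in D0 and 31.6 against 30.6 CPM in D21. The cholesterol synthesis list had a median of 0.16 in D0 and 0.60 in D21, with 17 of 21 and 14 of 15 genes above a ratio of 1 and none at 2-fold. These medians cover different genes, because fewer genes of the list reached 20 CPM in D21. A gene could also be counted through CEMIP/SAA cells alone, so the medians are not a like-for-like change.

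Cells with neither programme (gate sum below 1, AGR2 and SPANXB1 below 1, same other limits; 1948 in D0 and 1873 in D21) show which values did not rest on the AGR2 limit alone, because they met it too. TNFSF10 was at 58.0 CPM in them in D0 and 76.4 CPM in D21, against 426 and 362 CPM in CEMIP/SAA cells. CST1 was at 499 and 569.8 CPM, against 56.1 and 69.7 CPM. FN1 was at 131 and 106 CPM, against 471 and 255 CPM. All 3 genes thus kept their direction against cells low in AGR2 and SPANXB1. Cells with both programmes (232 in D0, 467 in D21) lay between, with TNFSF10 at 219 and 235 CPM and CST1 at 337 and 314 CPM. These cells held a median of 42292 UMIs in D0 and 18957 in D21, above the 22752 and 12914 UMIs of CEMIP/SAA cells, and pairs of cells under 1 barcode cannot be told apart from cells with both programmes.

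Across cells that met the other limits, these genes followed the gate sum by degrees. In D0, TNFSF10 was at 30.7 CPM in cells with a gate sum of 0, 172 from 1 to 2, 283 from 2 to 5 and 810.5 at 20 or more. In D21 these were 59.0, 166, 233 and 624 CPM. Cells just below the limit thus already held more TNFSF10 transcript than cells with none of the 3 transcripts. NNMT went from 23.2 to 325 CPM in D0 and from 54.5 to 373 CPM in D21 between the same ends. HLA-B went from 402 to 1614 CPM and from 512 to 1713 CPM. CST1 went the other way, from 606 to 24.6 CPM in D0 and from 726 to 41.2 CPM in D21. Within CEMIP/SAA cells, genes of inflammation were higher at the upper end. SOD2, an NF-kB-induced superoxide dismutase, was at 37.7, 49.9, 50.5 and 116 CPM from the lowest to the highest gate sum in D0, and at 67.2, 67.8, 88.5 and 149 CPM in D21. CXCL8 was at 18.9 CPM from 2 to 5 and 81.1 CPM at 20 or more in D21, and IL6 at 14.9 and 59.7 CPM. The cytokine list summed to 467 and 1202 CPM at these ends in D0 and to 441 and 1104 CPM in D21.

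**Figure D2:**
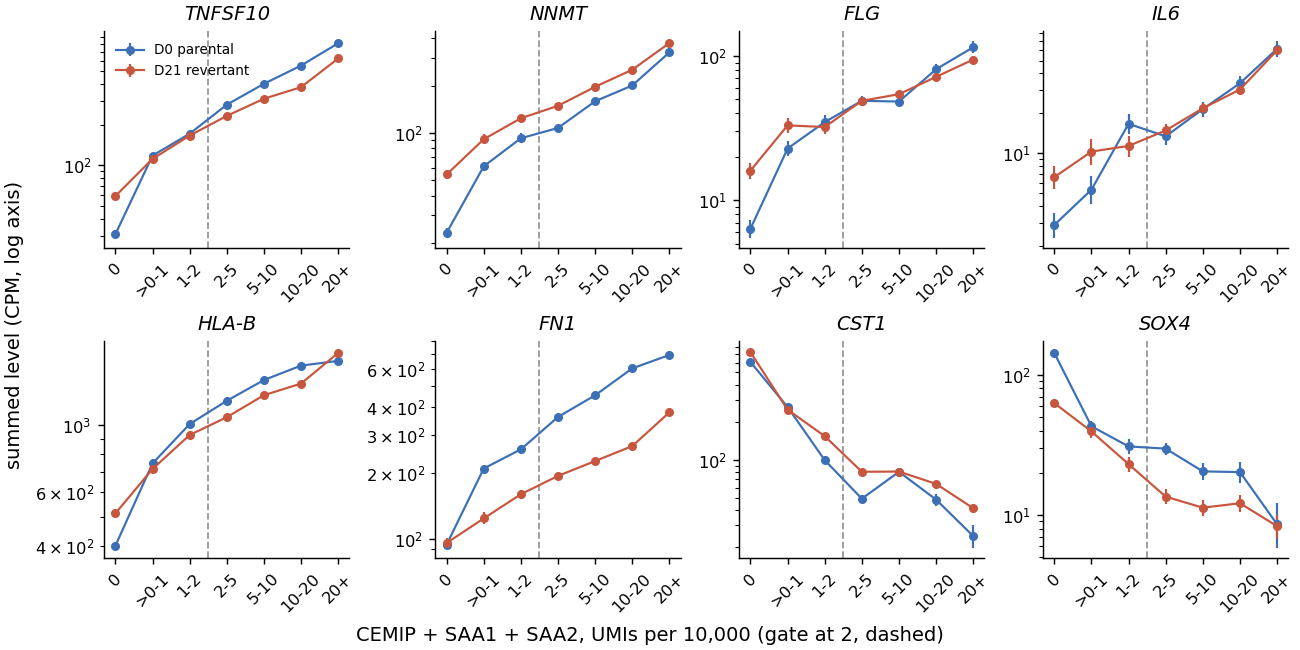
Summed levels of 8 genes (CPM, log axis, with exact 95% Poisson intervals) are plotted by gate sum (UMIs per 10,000) in D0 (blue) and D21 (red), with the limit of 2 as a dashed line. TNFSF10, NNMT, FLG, IL6, HLA-B and FN1 are highest at a gate sum of 20 or more and CST1 and SOX4 lowest, in both libraries (TNFSF10 at 810.5 and 624 CPM).

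CEMIP/SAA cells were not uniform. Those with CEMIP UMIs and those with serum amyloid alone differed in signalling genes and in genes of the cell cycle. TNFSF10 was at 607 CPM in D0 cells with CEMIP only, 468 with both and 194 with serum amyloid only, and at 417, 449 and 200.4 CPM in D21. NEDD9 was at 78.9, 58.2 and 20.6 CPM in D0 and 80.2, 57.6 and 26.2 CPM in D21. Cells with serum amyloid only were thus the lowest in both genes. FN1 showed the same order in D0, at 763, 499.5 and 259 CPM, and in D21 was lowest in them too, at 279, 294 and 181 CPM. IL6 was lowest with serum amyloid only as well, at 10.8 CPM against 32.2 and 27.5 in D0 and 18.1 against 24.2 and 34.6 in D21. The CEMIP-only group is small, with 95 and 122 cells, and its cells held fewer UMIs (median 16703 and 10050) than the group with both (24047 and 13540). In these comparisons the split was made on the same transcripts that chose the cells, so it is a description.

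The 30 genes of the G2 phase and mitosis, among them TOP2A, CENPF and UBE2C, summed to less in cells with CEMIP. With the split made at equal depth after thinning, they summed to 3263 CPM in D0 cells with CEMIP and 5087 CPM in cells with serum amyloid and no CEMIP, and in D21 to 3339 and 5013 CPM. Because the number of UMIs differed between the groups, the sums are also given at matched UMIs. Between 10000 and 15000 UMIs they were 1334 against 2208 CPM in D0 and 2648 against 4458 CPM in D21. Between 15000 and 20000 UMIs they were 2070.4 against 3251 CPM and 3822 against 5057 CPM. Between 20000 and 30000 UMIs they were 2857 against 4810.4 CPM and 4018 against 5656 CPM. Cells with CEMIP were the lower in all 6 pairs. Cells with neither programme held 3416, 4732 and 5354 CPM in the same windows of D0 and 4840, 5387 and 5853 CPM in D21. The G2/M sum was also lower at high gate sums, at 4640.1 CPM from 2 to 5 and 2545 CPM at 20 or more in D0, and at 4769 and 3361 CPM in D21. In the same windows of UMIs these were 1886 against 1053, 2824 against 2365 and 4068 against 2558 CPM in D0, and 4023 against 2634, 5104 against 4529.9 and 5234 against 4359 CPM in D21. TOP2A in D21 had a log2 ratio of 0.10 in CEMIP/SAA cells against other cells and -0.69 when cells were chosen on CEMIP alone.

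The next comparison set D21 CEMIP/SAA cells against D0 CEMIP/SAA cells, chosen by the same gate. Of 7007 genes with at least 20 CPM in either, 16 (0.228%) were at least 2-fold higher in D21 and 57 (0.813%) at least 2-fold lower, with a median log2 ratio of -0.05 over all genes and 41.6% of them above a ratio of 1. The library and the condition cannot be told apart in these ratios. The mix of CEMIP/SAA cells differed too. After thinning, cells with serum amyloid and no CEMIP were 38.2% of them in D0 and 52.2% in D21. The part of this mix in the ratios was not tested. Among higher genes, IGFBP3, a secreted binding protein of insulin-like growth factors, was at 13.6 CPM in D0 and 37.4 CPM in D21, 2.76-fold (2.50 to 3.06) higher. NUPR1, a stress-induced nuclear protein, was at 18.4 and 50.2 CPM, 2.73-fold (2.50 to 2.97) higher. INHBA, the activin A subunit, was at 9.75 and 24.0 CPM, 2.46-fold (2.19 to 2.78) higher, and was also higher in CEMIP/SAA cells than in other cells of both libraries (4.40-fold and 2.44-fold). TMEM238, LRRC75A, CSNK2A2, GPCPD1, LINC02755, SFTA1P, RRAD, SNTB1 and HIST2H2AC completed the 12 highest, with log2 ratios from 1.07 to 1.49. PSAT1, of serine synthesis, was at 74.9 and 130.2 CPM, 1.74-fold higher, and the ferritin chains FTL and FTH1 were 1.62-fold and 1.33-fold higher.

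Among lower genes, HES1, a Notch-induced repressor, was at 175 CPM in D0 and 53.3 CPM in D21 CEMIP/SAA cells, a ratio of 0.305 (0.293 to 0.318). ANKRD1, a target of YAP, was at 532 and 206 CPM, a ratio of 0.388. AKR1C3, a steroid reductase, was at 33.6 and 10.4 CPM, LIPG, endothelial lipase, at 28.3 and 10.9 CPM, and MVD, of the mevalonate pathway, at 32.3 and 12.8 CPM. PLPP4, MIR4458HG, RMRP, SNHG25, ACADVL, SLCO4A1 and PRR34-AS1 completed the 12 lowest, with log2 ratios from -1.55 to -1.33. All 20 cholesterol synthesis genes measured lay below a ratio of 1, 6 of them at least 2-fold, with a median log2 ratio of -0.70. So did all 15 genes of fatty acid synthesis (2 at least 2-fold, median -0.27) and all 19 of glycolysis (1 at least 2-fold, median -0.49). Matrix genes were lower as well, 13 of 17 below a ratio of 1 with a median of -0.58, including FN1 at 471 and 255 CPM. The MHC class II genes lay below a ratio of 1 for all 5 measured (median -0.82), CD74 going from 181 to 101 CPM.

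Genes that mark the state outside the choice differed in their D21 to D0 ratios. GRIK4 was at 40.1 and 20.1 CPM, COL6A3 at 36.3 and 24.0 CPM and DENND2A at 41.7 and 30.4 CPM. FLG, ABCA1, HLA-B and HLA-F had D21 to D0 ratios of 1.04, 0.969, 0.950 and 1.01 in CEMIP/SAA cells, and those of FLG, ABCA1 and HLA-F changed side of 1 under some alternative choices of cells. TNFSF10 had a ratio of 0.849 (0.832 to 0.866) and IL6 of 1.16 (1.07 to 1.25). Both genes were lowest in cells with serum amyloid only, whose share differed between the libraries. The part of that difference in these ratios was not tested. NNMT was 1.39-fold (1.35 to 1.43) higher and IL32 1.46-fold (1.39 to 1.53) higher in D21. Of the methionine genes, MAT2A, which makes S-adenosylmethionine, was at 59.1 CPM in D0 and 80.9 CPM in D21, and MTR at 41.3 and 31.6 CPM, and none of 8 was past 2-fold. The 12 folate genes had a median log2 ratio of 0.02 and the 6 vitamin B12 genes one of -0.31, none past 2-fold.

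AGR2 and SPANXB1 state cells, with those genes at 2 or more and the gate sum below 1 per 10,000, went from 2742 cells (36.6%) in D0 to 1795 (14.4%) in D21. In them 12 genes (0.18%) were at least 2-fold higher and 72 (1.08%) at least 2-fold lower in D21 than in D0, of 6682. CEMIP/SAA cells and AGR2 cells were set side by side through the ratio of their D21 to D0 ratios, which lay above 1 for 54.4% of 6374 genes (median log2 0.02). For cholesterol synthesis 19 of 20 genes lay above 1, the list being lower by a median log2 of 0.70 in CEMIP/SAA cells and of 1.36 in AGR2 cells. HMGCS1, an early enzyme of the pathway, was at 95.5 CPM in D0 and 55.1 CPM in D21 CEMIP/SAA cells, and at 69.5 and 17.6 CPM in AGR2 cells. DHCR7, the last step of the pathway, was at 74.4 and 35.2 CPM and at 49.8 and 9.69 CPM. INSIG1, the sterol-sensing retention protein, was at 123 and 49.5 CPM and at 121 and 20.3 CPM. The desaturase SCD was at 249.8 and 116 CPM in CEMIP/SAA cells and at 180.1 and 36.8 CPM in AGR2 cells. Both states thus held less of these transcripts in D21, and AGR2 cells held the smaller remaining share.

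Stress genes were held in 3 lists. All 13 genes of the ATF4 and serine synthesis list had a ratio of ratios above 1, with median log2 D21 to D0 ratios of 0.24 in CEMIP/SAA cells and -0.39 in AGR2 cells. DDIT3, a transcription factor of endoplasmic reticulum stress, was at 20.7 CPM in D0 and 35.0 CPM in D21 CEMIP/SAA cells, and at 65.6 and 45.9 CPM in AGR2 cells. All 16 genes of the list of endoplasmic reticulum chaperones and the unfolded protein response also lay above 1 (medians -0.16 and -0.58). In that list HSPA5, the main chaperone there, was at 490.0 and 382 CPM and at 676 and 249 CPM. Of 12 heat shock genes 8 lay above 1, with medians of 0.0015 in CEMIP/SAA cells and -0.07 in AGR2 cells. Of 30 G2/M genes 29 lay above 1, with medians of 0.13 and -0.15. The G2/M sum was at 3263 CPM in D0 and 3339 CPM in D21 CEMIP/SAA cells with CEMIP. It was at 5087 and 5013 CPM in those with serum amyloid and no CEMIP. Between 10000 and 15000 UMIs these pairs were 1334 and 2648 CPM, and 2208 and 4458 CPM. Between 15000 and 20000 UMIs they were 2070.4 and 3822 CPM, and 3251 and 5057 CPM. Between 20000 and 30000 UMIs they were 2857 and 4018 CPM, and 4810.4 and 5656 CPM. Cells with neither programme were also higher in D21, at 3416 and 4840 CPM in the lowest window and 5354 and 5853 CPM in the highest. The parts of the mix of cells and of depth in the G2/M ratios were not tested. Among single genes, FST, which binds activin, was at 46.0 and 46.2 CPM in CEMIP/SAA cells and at 26.9 and 10.3 CPM in AGR2 cells, and TMEM154, a membrane protein, at 22.9 and 17.6 CPM and at 98.2 and 24.96 CPM. PRSS2, a trypsinogen (chr7:142760398-142774564), showed the opposite, at 27.3 and 18.2 CPM in CEMIP/SAA cells and 72.7 and 504 CPM in AGR2 cells. Trypsinogen genes are near-identical copies, and their reads could be split. CSF2 was at 25.6 and 16.1 CPM in CEMIP/SAA cells and 18.3 and 34.4 CPM in AGR2 cells.

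**Figure D3:**
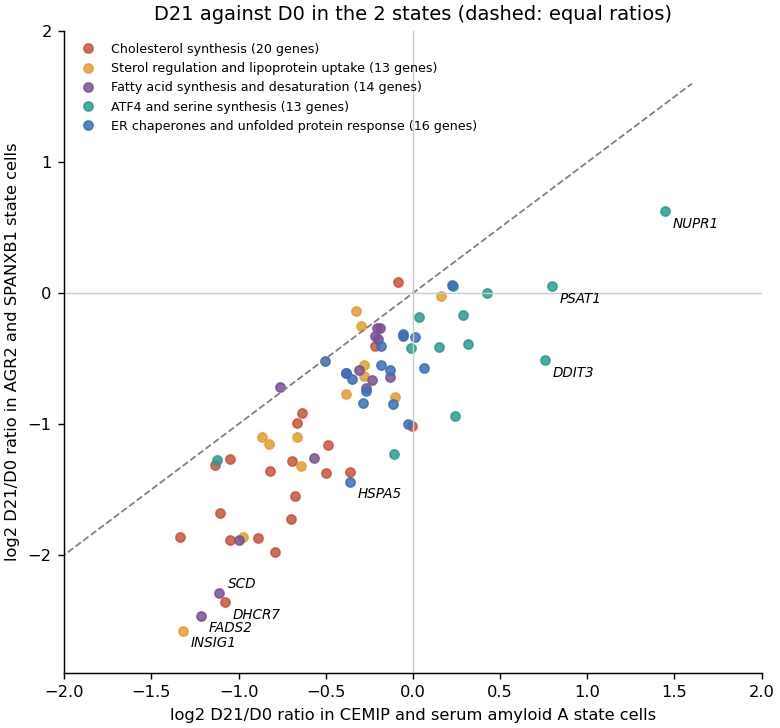
The log2 D21 to D0 ratio of each gene of 5 lists is plotted in CEMIP/SAA cells (horizontal) and in AGR2 and SPANXB1 state cells (vertical), with equal ratios as a dashed line. Most points lie below the line, with INSIG1 at -1.32 and -2.58 and DDIT3 at 0.76 and -0.51.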

How the data were processed

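The authors prepared 1 library of each condition with the 10x Genomics 3' chemistry (v3.1) and deposited raw UMI counts per gene and barcode, not normalised and with empty droplets included. The file headers name Cell Ranger 4 and the submitters' processing notes GRCh38. No source used here gives the annotation, the strand setting or the treatment of reads with several matches. Barcodes were kept at the UMI, gene and mitochondrial limits given above, which left 7492 D0 and 12487 D21 cells. UMIs were summed over the cells of a group and expressed per 1000000 UMIs of that group (CPM). Ratios have exact conditional Poisson intervals and shares exact Clopper-Pearson intervals at 95%. The difference between 2 shares has an interval from the normal approximation. The ratio of 2 ratios has a log-normal interval. Genes with at least 20 CPM in 1 of the compared groups were counted as past 2-fold by size alone. Cells were thinned once without replacement to 5422 UMIs (seed 1).

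Named genes were the 15 higher and 10 lower genes by the smaller log2 ratio of both libraries, the 12 highest and 12 lowest D21 to D0 ratios in CEMIP/SAA cells, the 8 largest ratios of ratios, and per list the 5 genes of highest level and the most extreme gene. The members, the 46 gene lists (811 genes) and the rules were chosen with earlier results of these data known. The 10 genes of the choice are in no list or count. Scrublet, a doublet caller, marked 0 D0 and 1 D21 cells and so did not work here. Doublets were kept, and an alternative left out the 6% of cells with the highest scores. Gene coordinates and SAA transcripts come from GENCODE v29 on GRCh38, and start regions from RefSeq. Scripts used Python 3.11.15, NumPy 2.4.6, SciPy 1.17.1, pandas 2.3.3 and Scanpy 1.11.5 and were tested on simulated data.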

Additional observations from a re-analysis of the deposited data

Results flagged for a closer look

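Only the genes named by the rules given above were searched, and these rules pick in part the largest ratios of ratios. Among them, 3 genes had D21 to D0 ratios that went opposite ways in CEMIP/SAA cells and in AGR2 and SPANXB1 state cells. Their counting intervals lay on opposite sides of 1, and the change was at least 2-fold in 1 of the states. The other genes measured in both states were not searched, so 3 is not a count over all genes. With 1 library per condition the difference was not tested. PRSS2, a trypsinogen, was at 27.3 CPM in D0 and 18.2 CPM in D21 CEMIP/SAA cells and at 72.7 and 504 CPM in AGR2 and SPANXB1 state cells, D21 to D0 ratios of 0.666 (0.611 to 0.725) and 6.93 (6.68 to 7.18) and a log2 ratio of ratios of -3.38. MORC4, a nuclear ATPase with a zinc finger, was at 199.7 CPM in D0 and 93.4 CPM in D21 CEMIP/SAA cells and at 160.4 and 186 CPM in AGR2 and SPANXB1 state cells, D21 to D0 ratios of 0.468 (0.452 to 0.484) and 1.16 (1.12 to 1.21) and a log2 ratio of ratios of -1.31. SNTB1, a syntrophin of the membrane cytoskeleton, was at 15.4 CPM in D0 and 33.8 CPM in D21 CEMIP/SAA cells and at 26.5 and 23.4 CPM in AGR2 and SPANXB1 state cells, D21 to D0 ratios of 2.19 (1.99 to 2.41) and 0.886 (0.798 to 0.983) and a log2 ratio of ratios of 1.31. PRSS2 has near-identical copies that could share reads. In D21 against other cells, MORC4 had a log2 ratio of -0.55 in CEMIP/SAA cells and of 0.03 when cells were chosen on CEMIP alone.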

How the results depend on the processing

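No paired analysis was possible because each condition has 1 library, and for the same reason no replicate could be left out. No gene past 2-fold and no list median of 0.25 or more in size changed sign under any alternative. Smaller values did, and among single genes these were not only values near 0. The ratios given above for ISG15, CSF2, SERPINA1 and MORC4 changed sign under an alternative choice of cells. The D21 share was above the D0 share under all 12 choices of cells tried. The shares in D0 and D21 were 13.5% and 32.2% after thinning, 20.9% and 40.2% at double the UMI minimum, 10.3% and 25.6% at a gate sum of 5 or more (difference 15.4 points), 7.65% and 11.6% on CEMIP alone (3.94 points), 11.7% and 31.9% on SAA1 and SAA2 alone, 12.9% and 32.7% with no AGR2 or SPANXB1 UMI, and 17.2% and 37.9% with these below 2. In D21 the share was 39.5% at the UMI minimum of D0 (difference 23.3 points) and 37.7% without the interferon limit. Of genes at least 2-fold higher against other cells, D0 held 78 and D21 22 at double the UMI minimum, 198 and 90 on CEMIP alone (with 48 lower in D21), 188 and 68 as means over cells (with 138 lower in D0), and D21 held 26 on SAA1 and SAA2 alone. Against AGR2 and SPANXB1 state cells, 274 were higher and 169 lower in D0, and 278 and 202 in D21. A floor of 5 CPM gave 241 higher and 274 lower in D0, 95 and 231 in D21, and 52 and 115 for D21 against D0. A floor of 1 CPM gave 499 and 585, 205 and 494, and 194 and 280. The cause of these shifts was not tested, apart from the lower floors, which admit more genes. Of single-gene log2 ratios under the alternatives, 10502 stayed within the counting interval of the reported value and 4230 did not, and of list medians 2067 stayed within 0.1 and 273 did not. Depth limits genes below 20 CPM, and the thinned cells show that the choice itself depends on depth.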

Other observations

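Some genes below 20 CPM also belong to the acute-phase and complement list. They were picked after their values were seen and are given as values. C3, the central complement component, had 60 UMIs (1.76 CPM) in D0 and 327 (4.74 CPM) in D21 CEMIP/SAA cells, against 58 (0.389 CPM) and 159 (1.40 CPM) in other cells. LCN2, an iron-carrier-binding protein of inflamed epithelium, had 30 UMIs (0.878 CPM) in D0 and 417 (6.05 CPM) in D21 CEMIP/SAA cells, 6.89-fold (4.75 to 10.3) higher in D21, against 283 (1.90 CPM) and 564 (4.95 CPM) in other cells. Members of 1 signalling pathway went different ways. In the Notch list, the target HES4 was 2.30-fold and 1.76-fold higher in CEMIP/SAA cells than in other cells, while the ligand JAG1 had ratios of 0.412 and 0.372. In the transforming growth factor beta list, the ligand TGFB2 was 2.08-fold and 1.66-fold higher and the receptor TGFBR1 2.13-fold and 1.71-fold, while LTBP1, which stores the latent ligand, had ratios of 0.446 and 0.408.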
